A study of Mus musculus with 6 samples.

Results

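Potassium channel genes were examined in RNA of the whole aorta of male mice, as all genes of the expression table whose symbol starts with *Kcn*, apart from *Kcnn3* and *Kcnn4*. This gave 88 of the 18191 genes in the table, of 90 with such a symbol. The table holds 3 libraries of WT mice and 3 libraries of Npr1+/- mice, in which CRISPR-Cas9 had left 1 intact copy of *Npr1*, and within each genotype the libraries are numbered 1 to 3. Strain, age and the number of animals behind a library are not given in the sources used here, so that p-values measure the spread between these libraries, which may be technical. The study asked which genes differ in the aorta when *Npr1*, which encodes a receptor of the natriuretic peptides made by the heart, is reduced.

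Potassium channels let potassium leave the cell down its gradient, which holds the membrane at a negative voltage. In vascular smooth muscle this keeps voltage-gated calcium channels closed and the vessel wall relaxed. The natriuretic peptide receptor makes cGMP, and the protein kinase that cGMP activates is known to open the large-conductance calcium-activated (BK) channel of arterial muscle. The members were sorted by the names of their families into 38 voltage-gated channels, 15 inward rectifiers, 12 two-pore (leak) channels, 4 BK and other Slo channels, 2 small-conductance calcium-activated channels and 17 accessory subunits and regulators.

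The libraries held between 13510970 and 16664343 estimated counts, and the floor of 3 counts lay between 0.185 and 0.219 CPM. CPM here are counts scaled to library size after TMM normalization, and they compare libraries for a given gene. FPKM are the deposited values per kilobase of transcript, and they compare genes. Of the members, 50 passed the filter on low counts and were tested, 38 were not tested, and 5 of these had under 3 counts in every library. The estimate divides reads that fit several genes, and 39 members had a count that was not whole (by more than 0.005), among them *Kcnj15*, *Kcnma1*, *Kcnmb1* and *Kcnk3*. *Npr1* was at 453, 611 and 633 CPM in WT and at 295, 452 and 527 CPM in Npr1+/- aortas. The genotypes overlapped, at 566 ± 98.3 against 425 ± 118 CPM (mean ± SD, n = 3), which is 75.1% of WT, and *Npr1* did not pass the test (log2 fold change −0.41, SE 0.27, adjusted p = 0.999, edgeR quasi-likelihood test).

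Some libraries stood apart within both genotypes, and each result is therefore given beside them. The summed level of 8 smooth muscle markers was 20900, 35400 and 38100 CPM in WT 1, 2 and 3 and 12900, 33600 and 34600 CPM in Npr1+/- 1, 2 and 3, and all 8 were lower in both libraries numbered 1 than in the other 4. The 6 fat markers summed to 6920, 1210 and 1810 CPM in WT and to 9900, 3150 and 2690 CPM in Npr1+/- aortas. The 16 neuron markers summed to between 14.3 and 23.8 CPM in 5 libraries and to 712 CPM in Npr1+/- 1, where all 16 were highest. *Th* and *Dbh*, which make noradrenaline in sympathetic neurons, were at 70.3 and 132 CPM there and at most at 0.127 and 0.569 CPM elsewhere. The 8 Schwann cell markers summed to 269 CPM in Npr1+/- 1 and to between 59.1 and 95.2 CPM in the others. The 8 endothelial markers summed to 760, 497 and 862 CPM in WT and to 1430, 979 and 924 CPM in Npr1+/- aortas. On this sum every Npr1+/- library lay above every WT library. All 8 had a log2 fold change above 0, with a median of 0.62 (edgeR). Without Npr1+/- 1 it was above 0 in 7 of the 8, with a median of 0.43. All 8 endothelial markers but only 5 of the 8 Schwann cell markers were highest in Npr1+/- 1. The summed levels of the other marker lists lay between 2700 and 5830 CPM for 6 fibroblast genes, 181 and 424 CPM for 6 macrophage genes, 1250 and 3820 CPM for 4 pericyte genes, 30.8 and 43.4 CPM for 7 cardiac muscle genes and 5.83 and 9.12 CPM for 6 skeletal muscle genes. In bulk RNA, fewer cells of a type and less RNA per cell cannot be told apart.

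No potassium channel gene was called different between the genotypes by edgeR. The count was 0 of 50 with both an adjusted p under 0.05 and a log2 fold change of 0.5 or more in size, and 0.0% of all 13938 genes tested were called. At an unadjusted p under 0.05 there were 3 of the 50 members (6.0%), against 2.96% of all genes. *Kcnj15* was lower in Npr1+/- aortas, and *Kcna1* and *Kcne3* were higher. A log2 fold change above 0 was found in 27 of the 50 members, against 51.6% of all genes, with a median of 0.06 against 0.01. DESeq2 called 1 of the 87 members it tested, *Kcnj15*, against 0.0832% of all genes.

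With the library number as a block, which compares each Npr1+/- library with the WT library of its number, edgeR still called 0 of 50 members and 0.0% of all genes. The sample titles state no such pairing, and correlations between the libraries did not tell numbers 2 and 3 apart. With the block the unadjusted p was under 0.05 in 14 of the 50 members (28.0%), against 12.4% of all genes. The 5 that were higher, against 7.36% of all genes, were *Kcna1*, *Kcna5*, *Kcne3*, *Kcnk2* and *Kcnk3*. The 9 that were lower (18.0%, against 5.09% of all genes) were *Kcnab1*, *Kcnd3*, *Kcnh2*, *Kcnip1*, *Kcnip4*, *Kcnj8*, *Kcnj15*, *Kcnma1* and *Kcnmb1*. DESeq2 with the block called 3 of 44 members, *Kcnj15* (adjusted p = 0.00103), *Kcna1* (adjusted p = 0.00537) and *Kcnk3* (adjusted p = 0.0357), against 1.98% of all genes.

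Without Npr1+/- 1, edgeR called 0 of 50 members and 0.0% of all genes. The unadjusted p was under 0.05 in 2 of the 50 members (4.0%), against 2.51% of all genes. These were *Kcnj15* and *Kcnf1* (a silent voltage-gated subunit, singled out after its values were seen). The share of members with a log2 fold change above 0 went from 27 of 50 to 16 of 50, while that of all genes went to 43.5%. The sign turned from above to below 0 in 13 members and the other way in 2, among them *Kcne4*. Without both libraries numbered 1, edgeR called 0 of 48 members and 0.00717% of all genes. There the unadjusted p was under 0.05 in 11 of the 48 members (22.9%), against 11.5% of all genes. Of these 48 members 18 had a log2 fold change above 0, against 51.0% of all genes.

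**Figure D1:**
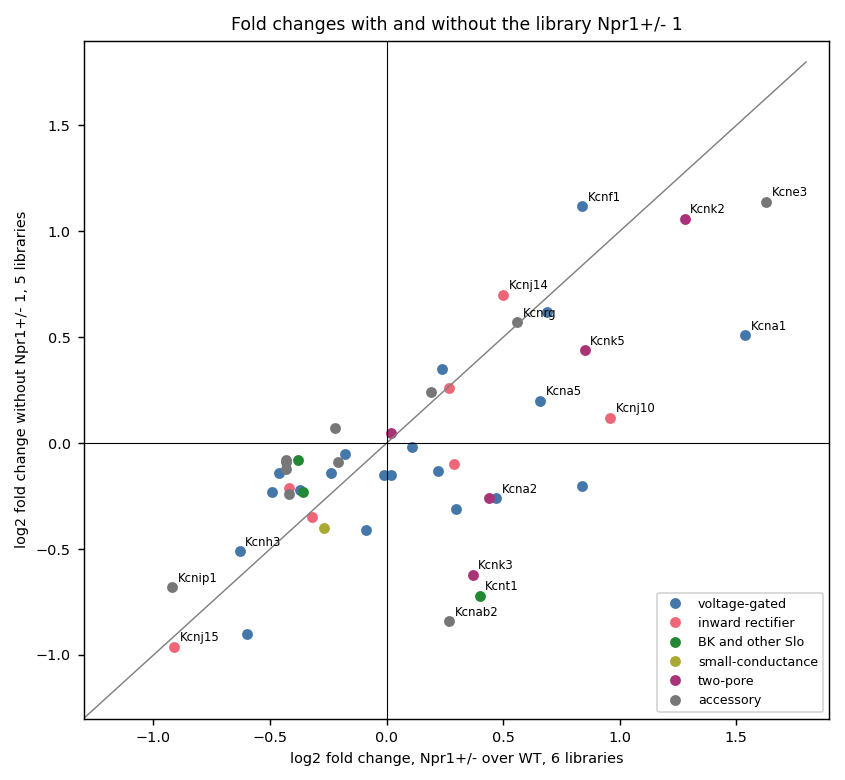
The log2 fold change (Npr1+/- over WT, edgeR) of tested members in all 6 libraries (x axis) and without Npr1+/- 1 (y axis), with 1 point per gene coloured by class and the grey line marking equal values. *Kcnj15* is at −0.91 and −0.96, whereas *Kcna1* goes from 1.54 to 0.51 and *Kcnk3* from 0.37 to −0.62.

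By class, 13 of 23 tested voltage-gated channels had a log2 fold change above 0, with a median of 0.11, and 6 of 23 without Npr1+/- 1, with a median of −0.14. Of the 7 tested inward rectifiers 4 were above 0, with a median of 0.27, and 3 without that library, with a median of −0.10. All 5 tested two-pore channels were above 0, with a median of 0.44, and 3 of 5 without that library, with a median of 0.05. The 3 tested Slo channels had a median of −0.36 and of −0.23 without that library. Of 11 tested accessory genes 7 were below 0 in each fit, though not the same 7, with medians of −0.22 and −0.09. These are counts of signs, and 0 genes of any class were called by edgeR.

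The most abundant members per length of transcript were accessory subunits, voltage-gated channels, the pores of the BK and the vascular ATP-sensitive channel, and a two-pore channel. *Kcnmb1*, the beta1 subunit that makes the BK channel more sensitive to calcium, had a mean of 55.1 FPKM over the 6 libraries. *Kcnab1*, a beta subunit of Kv1 channels, was at 52.1 FPKM. *Kcnk3*, the acid-sensitive leak channel TASK-1, was at 39.4 FPKM, and *Kcnh2*, the ERG channel also known for repolarising the heart, was at 36.4 FPKM. *Kcnj8* was at 16.5, *Kcnc4* at 13.1 and *Kcnma1*, the pore of the BK channel, at 12.2 FPKM. In all, 8 members had a mean of at least 10 FPKM and 24 a mean of at least 1 FPKM, and 29 members had a mean under 0.1 FPKM. The 5 highest members held between 56.1% and 65.1% of the summed FPKM of all members in a library. Neighbours in this order were not separated, since the libraries of *Kcnmb1* spanned 22.91 to 75.81 FPKM and those of *Kcnab1* 19.40 to 78.95 FPKM.

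**Figure D2:**
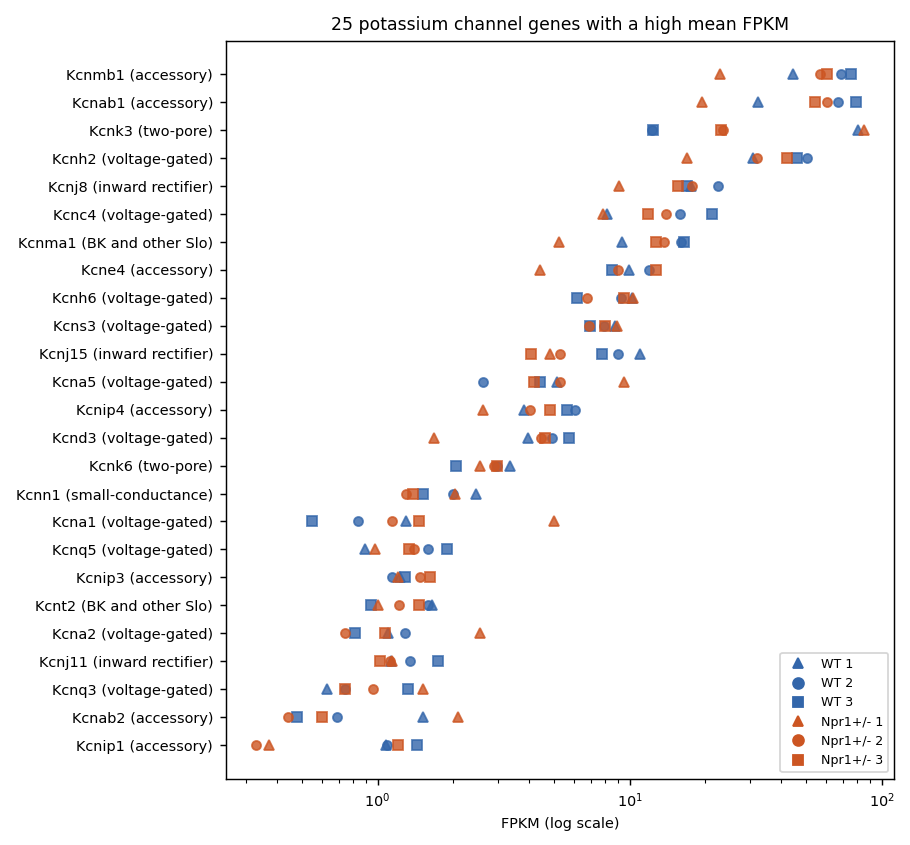
FPKM (log scale) of 25 members with a high mean, 1 row per gene with its class, blue for WT and orange for Npr1+/-, with triangles, circles and squares for libraries 1, 2 and 3. The triangles of *Kcnk3* lie at 80.29 and 85.15 FPKM, far to the right of its other libraries, and those of *Kcnmb1* and *Kcnab1* to the left of theirs.

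Among the inward rectifiers, *Kcnj15* (gene 16516, chr16:95257558-95300260, GRCm38) had the smallest p of all tested members. It encodes Kir4.2, which can pair with the product of *Kcnj16*. *Kcnj15* was at 53.0, 43.1 and 39.0 CPM in WT and at 25.1, 26.6 and 20.3 CPM in Npr1+/- aortas, so that every Npr1+/- library lay below every WT library. Such a separation was seen in 2 of the 50 tested members, *Kcnj15* and *Kcnh3*, and in 3.58% of all genes. WT and Npr1+/- means were 45.0 ± 7.22 and 24.0 ± 3.32 CPM (SD, n = 3), or 53.3% of WT, and the Npr1+/- library was at 47.3%, 61.8% and 52.0% of the WT library of the same number. Its log2 fold change was −0.91 (SE 0.17, unadjusted p = 0.00131, adjusted p = 0.999, edgeR), and an exact two-sided permutation test gave p = 0.1, the smallest that 3 libraries against 3 allow. DESeq2 gave an adjusted p of 0.0390.

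The difference of *Kcnj15* kept its direction without the libraries that stood apart. It was −0.96 on the log2 scale without Npr1+/- 1 (unadjusted p = 0.00421, edgeR), −0.81 without both libraries numbered 1 (SE 0.16, adjusted p = 0.206, edgeR) and −0.90 with the block (SE 0.12, adjusted p = 0.0743, edgeR). *Kcnj16* had between 1.79 and 9.52 counts and was not tested.

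*Kcnj8* (gene 16523, chr6:142564837-142571614, GRCm38) encodes Kir6.1, the pore of the vascular ATP-sensitive potassium channel, which closes when ATP is plentiful. It was at 38.9, 49.7 and 39.0 CPM in WT and at 21.1, 40.1 and 34.2 CPM in Npr1+/- aortas. Npr1+/- 1 was the lowest library and the genotypes overlapped. The means were 42.5 ± 6.21 and 31.8 ± 9.73 CPM (SD, n = 3), and the log2 fold change was −0.42 (SE 0.25, adjusted p = 0.999, edgeR). It was −0.21 without Npr1+/- 1 and −0.45 with the block (adjusted p = 0.304, edgeR). *Abcc9*, which encodes the SUR2 subunit that this pore needs, was at 306, 473 and 511 CPM in WT and at 183, 335 and 284 CPM in Npr1+/- aortas (unadjusted p = 0.0594, adjusted p = 0.999, edgeR). Its Npr1+/- library was at 59.6%, 70.8% and 55.6% of the WT library of the same number. The log2 fold change of *Abcc9* was −0.69, −0.49 without Npr1+/- 1 and −0.70 with the block, where the adjusted p was 0.137 by edgeR and 0.00043 by DESeq2. Both genes had their lowest library in Npr1+/- 1.

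The 250 bases before the start of these 2 genes, the inward rectifiers with the highest FPKM, are shown because the pair differed in how far the genotypes separated. They are given 5′ to 3′ on the strand of the gene from RefSeq on GRCm38.p6, chr6:142571615-142571864 on the minus strand for *Kcnj8* and chr16:95257308-95257557 on the plus strand for *Kcnj15*, with every CG dinucleotide in capitals.
Kcnj8: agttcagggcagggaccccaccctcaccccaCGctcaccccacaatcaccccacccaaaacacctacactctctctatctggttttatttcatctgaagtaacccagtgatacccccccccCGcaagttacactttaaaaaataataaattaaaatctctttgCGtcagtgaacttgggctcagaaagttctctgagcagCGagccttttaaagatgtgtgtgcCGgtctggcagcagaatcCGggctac
Kcnj15: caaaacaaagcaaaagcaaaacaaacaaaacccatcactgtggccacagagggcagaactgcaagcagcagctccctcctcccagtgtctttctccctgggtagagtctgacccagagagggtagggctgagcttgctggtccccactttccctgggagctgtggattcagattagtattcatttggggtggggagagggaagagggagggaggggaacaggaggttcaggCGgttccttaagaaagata
The *Kcnj8* window held 6 CG dinucleotides, the median of all promoters in the RefSeq table, and 49.2% G or C. The *Kcnj15* window held 1 and 53.2% G or C, and 18.8% of all promoters held at most that many. The CArG box, the motif bound by serum response factor, was looked for on both strands, and it stood in 482 of 32851 promoters (1.47%). By gene identifier, 88 of these promoters matched 63 of the 88 members, some with more than 1 promoter, and the other members had none. The motif stood in 0 of these 88 promoters. This says only that these letters are not in these windows.

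The other inward rectifiers were expressed at low levels. *Kcnj2*, which encodes Kir2.1, was at 1.74 ± 0.279 CPM in WT and 2.14 ± 0.861 CPM in Npr1+/- aortas (SD, n = 3), with a log2 fold change of 0.29 that turned to −0.10 without Npr1+/- 1. *Kcnj11*, which encodes the ATP-sensitive pore Kir6.2 of the pancreas and heart, was at 4.03 ± 1.03 and 3.23 ± 0.0981 CPM (SD, n = 3), with a log2 fold change of −0.32. *Kcnj12*, singled out after its values were seen, was at 3.06, 3.21 and 3.34 CPM in WT and at 3.85, 4.11 and 3.62 CPM in Npr1+/- aortas. Its genotypes did not overlap, but its log2 fold change was 0.27 (SE 0.22, adjusted p = 0.999, edgeR). It was 1 of 2 of the 50 tested members with every Npr1+/- library above every WT library, against 3.90% of all genes. The other tested one was the regulator *Kcnrg*, at 0.754 ± 0.149 CPM in WT and 1.12 ± 0.136 CPM in Npr1+/- aortas (SD, n = 3), with a log2 fold change of 0.56 (SE 0.34, adjusted p = 0.999, edgeR).

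The pore and the beta1 subunit of the BK channel were both lowest in the libraries numbered 1. *Kcnma1* (gene 16531, chr14:23292288-24005110, GRCm38) was at 67.4, 117 and 132 CPM in WT and at 42.3, 105 and 95.6 CPM in Npr1+/- aortas. *Kcnmb1* (gene 16533, chr11:33962955-33973641, GRCm38) was at 175, 269 and 311 CPM in WT and at 95.3, 230 and 237 CPM in Npr1+/- aortas. In both genes the 2 libraries numbered 1 were below the other 4, and the genotypes overlapped. Fitted as log2 fold changes, they differed by −0.38 (SE 0.39) for *Kcnma1* and by −0.43 (SE 0.39) for *Kcnmb1*, each with an adjusted p of 0.999 (edgeR). Without Npr1+/- 1 it was −0.08 and −0.12, and with the block it was −0.43 and −0.50, with adjusted p-values of 0.258 and 0.277 (edgeR). *Kcnmb1* lies within the span of *Kcnip1*, but no exon of the 2 genes overlaps in the annotation.

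*Kcnt1* and *Kcnt2* encode sodium-activated Slo channels. *Kcnt2* was at 12.5, 11.4 and 7.60 CPM in WT and at 6.41, 8.29 and 9.79 CPM in Npr1+/- aortas, with a log2 fold change of −0.36. *Kcnt1* was at 2.48, 3.70 and 3.77 CPM in WT and at 9.12, 1.77 and 2.29 CPM in Npr1+/- aortas. Its highest library was Npr1+/- 1, and both other Npr1+/- libraries lay below every WT library. Npr1+/- 2 and 3 lay so in 3 of the 50 tested members (6.0%) and 7.74% of all genes. The log2 fold change of *Kcnt1* accordingly went from 0.40 (SE 0.64) to −0.72 (SE 0.33) without Npr1+/- 1.

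*Kcnh2* and *Kcnc4*, both abundant voltage-gated channels, were also lowest in the libraries numbered 1. *Kcnh2* was at 98.2, 159 and 153 CPM in WT and at 56.6, 103 and 132 CPM in Npr1+/- aortas, with a log2 fold change of −0.49 (SE 0.34, adjusted p = 0.999, edgeR) that was −0.23 without Npr1+/- 1 and −0.54 with the block (adjusted p = 0.202, edgeR). *Kcnc4*, a fast Kv3 channel, was at 29.9, 60.0 and 89.0 CPM in WT and at 35.2, 55.2 and 47.7 CPM in Npr1+/- aortas. In both genes the 2 libraries numbered 1 were below the other 4 and the genotypes overlapped. That order held in 11 of the 50 tested members, against 24.1% of all genes, and they also included *Kcnq5*, *Kcnd3*, *Kcnab1*, *Kcnma1* and *Kcnmb1*.

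*Kcna5*, which encodes the delayed rectifier Kv1.5 of arterial muscle, was not in that group. It was at 15.3, 7.78 and 13.8 CPM in WT and at 29.7, 16.2 and 12.3 CPM in Npr1+/- aortas, with a log2 fold change of 0.66 (SE 0.39) and of 0.20 without Npr1+/- 1. Its highest library was Npr1+/- 1. *Kcnq1*, the channel of the slow cardiac current, was at 1.47 ± 0.371 CPM in WT and 2.38 ± 0.528 CPM in Npr1+/- aortas (SD, n = 3), with a log2 fold change of 0.69 and of 0.62 without that library. *Kcnq5* had a log2 fold change of −0.24.

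*Kcna1*, a Kv1 channel best known from axons, was at 11.7, 7.47 and 5.13 CPM in WT and at 47.2, 10.4 and 12.9 CPM in Npr1+/- aortas. Npr1+/- 1 lay far above the other 5 libraries, and the genotypes overlapped. Its log2 fold change was 1.54 (SE 0.64, unadjusted p = 0.0474, adjusted p = 0.999, edgeR), 0.51 without Npr1+/- 1, 0.89 without both libraries numbered 1 and 1.30 with the block (adjusted p = 0.142, edgeR). In each of the 3 pairs of the same number the Npr1+/- library was the higher one, as in 11 of the 50 tested members and 17.5% of all genes. *Kcna2* was at 12.8, 14.9 and 9.88 CPM in WT and at 31.1, 8.86 and 12.3 CPM in Npr1+/- aortas, with a log2 fold change of 0.47 that turned to −0.26 without Npr1+/- 1. All 4 tested members of the Kv1 family had their highest library in Npr1+/- 1.

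Among the low voltage-gated members, *Kcnh3* was at 0.716 ± 0.0325 CPM in WT and 0.457 ± 0.109 CPM in Npr1+/- aortas (SD, n = 3), with a log2 fold change of −0.63 (SE 0.38, adjusted p = 0.999, edgeR), and it overlaps an exon of *Mcrs1* on the opposite strand by 1 base. *Kcng4*, a silent subunit, was at 1.12 ± 0.763 and 0.734 ± 0.230 CPM (SD, n = 3), a difference within the spread.

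**Figure D3:**
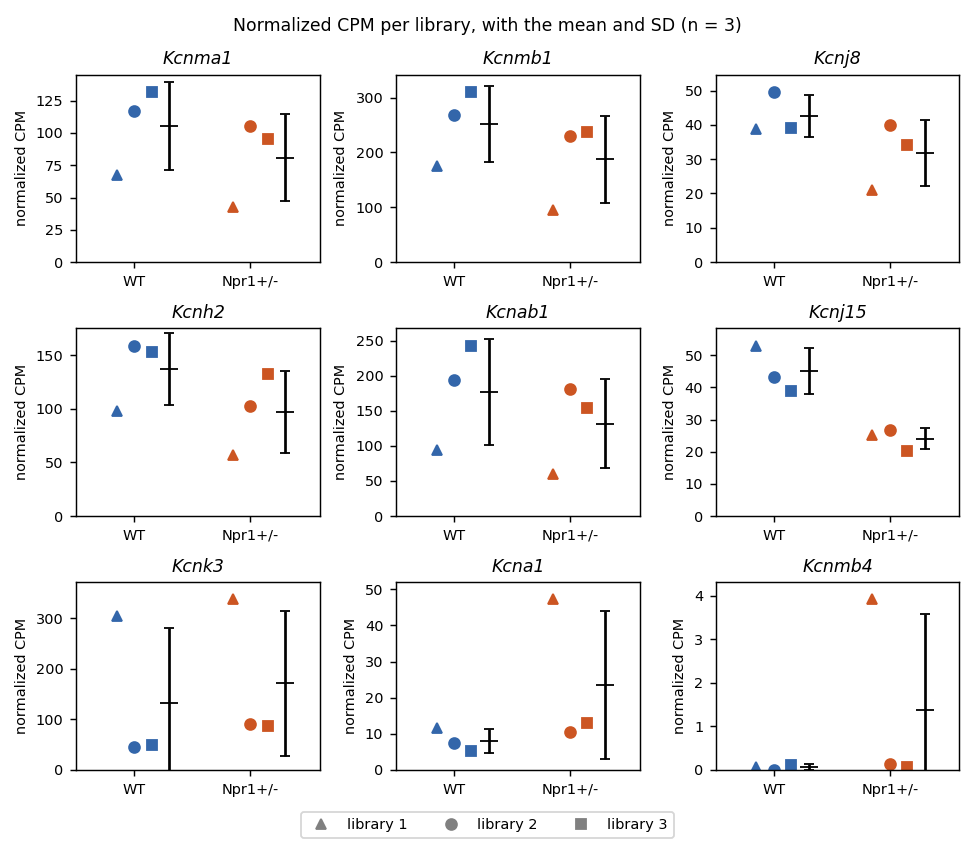
Normalized CPM (y axis, from 0) of 9 members in WT and Npr1+/- libraries, with triangles, circles and squares for libraries 1, 2 and 3 and black bars for the mean and SD (n = 3, cropped at 0). Only *Kcnj15* of these 9 has all Npr1+/- points below all WT points, and the triangles lie lowest in each genotype for *Kcnma1*, *Kcnmb1*, *Kcnh2* and *Kcnab1* and highest for *Kcnk3*.

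Among the two-pore channels, *Kcnk3* (gene 16527, chr5:30588170-30625270, GRCm38) had the widest range of the members with at least 10 FPKM. It was at 304, 45.9 and 48.7 CPM in WT and at 337, 91.2 and 85.9 CPM in Npr1+/- aortas. Both libraries numbered 1 lay far above the other 4, an order seen in 6 of the 50 tested members and 23.9% of all genes, and the Npr1+/- library was the higher in each pair of the same number. The log2 fold change was 0.37 (SE 0.89, adjusted p = 0.999, edgeR), −0.62 without Npr1+/- 1 and 1.85 without WT 1. Without both it was 0.90 (SE 0.10, unadjusted p = 6.67e-05, adjusted p = 0.168, edgeR), and with the block it was 0.65 (adjusted p = 0.217, edgeR).

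The summed fat markers moved with *Kcnk3* across the libraries. In 5 of the 6 fat markers both libraries numbered 1 were above the other 4. The exception was *Lep*, at 9.41, 3.39 and 21.6 CPM in WT and at 27.9, 17.7 and 6.04 CPM in Npr1+/- aortas. Without both libraries numbered 1 the log2 fold change (edgeR) was 1.0 for *Adipoq*, 1.08 for *Fabp4* and 0.84 for *Plin1*. In that fit it was 0.8 for *Ucp1*, 0.56 for *Cidea* and −0.07 for *Lep*. DESeq2 with the block, which called *Kcnk3*, also called *Adipoq*, *Fabp4* and *Plin1*. Per 1000 CPM of the 6 fat markers, a ratio chosen after the values were seen, *Kcnk3* was at 43.9, 38.0 and 27.0 in WT and at 34.0, 29.0 and 31.9 in Npr1+/- aortas. The highest of these was 1.63 times the lowest, against 7.34 times for the CPM, and the genotypes overlapped. The part of fat tissue in the levels of *Kcnk3* was not tested.

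*Kcnk2*, the mechanosensitive channel TREK-1, was at 1.75, 1.05 and 0.247 CPM in WT and at 3.14, 2.91 and 1.33 CPM in Npr1+/- aortas. The genotypes overlapped, and the log2 fold change was 1.28 (SE 0.67, adjusted p = 0.999, edgeR), 1.06 without Npr1+/- 1 and 1.43 with the block (adjusted p = 0.248, edgeR). *Kcnk6*, which encodes TWIK-2, was at 11.5 ± 2.51 CPM in WT and 11.6 ± 0.667 CPM in Npr1+/- aortas (SD, n = 3), with a log2 fold change of 0.02 (SE 0.21). *Kcnk1*, which encodes TWIK-1, was at 1.35 ± 0.381 and 1.85 ± 1.39 CPM (SD, n = 3), with a log2 fold change of 0.44 that turned to −0.26 without Npr1+/- 1.

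Of the small-conductance channels, *Kcnn1* was at 6.89 ± 1.62 CPM in WT and 5.70 ± 0.773 CPM in Npr1+/- aortas (SD, n = 3), with a log2 fold change of −0.27. *Kcnn2* had 24 counts in Npr1+/- 1 and at most 2 in any other library, and was not tested.

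Among the accessory genes, *Kcnab1* was at 94.2, 194 and 243 CPM in WT and at 59.6, 181 and 154 CPM in Npr1+/- aortas. The genotypes overlapped, and its log2 fold change was −0.43 (SE 0.49, adjusted p = 0.999, edgeR), −0.09 without Npr1+/- 1 and −0.47 with the block (adjusted p = 0.274, edgeR). *Kcne4*, a single-pass subunit of voltage-gated channels, was at 24.9 ± 3.66 and 21.4 ± 9.70 CPM (SD, n = 3), with a log2 fold change of −0.22 that turned to 0.07 without Npr1+/- 1. *Kcne3*, of the same family, had 10, 7 and 4 counts in WT and 32, 9 and 24 counts in Npr1+/- libraries. Its log2 fold change was 1.63 (SE 0.64, unadjusted p = 0.0397, adjusted p = 0.999, edgeR) and 1.14 without Npr1+/- 1. *Kcnip1*, a calcium-binding subunit of Kv4 channels, was at 1.81 ± 0.358 and 0.952 ± 0.718 CPM (SD, n = 3), with a log2 fold change of −0.92 (SE 0.54, adjusted p = 0.999, edgeR).

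Several members varied less between libraries once set against the smooth muscle markers, a ratio chosen after the values were seen. *Kcnma1*, *Kcnmb1*, *Kcnab1* and *Kcnh2* had both libraries numbered 1 below the other 4, as did all 8 markers and 24.1% of all genes. Dividing by the markers tends to narrow such a range by itself. The share of all genes that narrow was not counted, so no conclusion is drawn from the narrowing. Per 1000 CPM of the 8 markers, *Kcnma1* was at 3.23, 3.32 and 3.46 in WT and at 3.29, 3.14 and 2.76 in Npr1+/- aortas, and the highest was 1.25 times the lowest, against 3.11 times in CPM. *Kcnmb1* was at 8.41, 7.61 and 8.17 in WT and at 7.41, 6.86 and 6.86 in Npr1+/- aortas, a range of 1.23 times against 3.27 times in CPM. On this ratio every Npr1+/- library of *Kcnmb1* lay below every WT library, at 87.3% of the WT mean, and the same was seen for *Kcnd3*, the transient Kv4.3 channel, at 83.1%. These were the 2 of 50 tested members with this order, against 0.588% of all genes tested. The opposite order was also seen in 2 of 50, *Kcnf1* and the inward rectifier *Kcnj14*, at 216% and 179% of the WT mean, against 1.84% of all genes tested. Both were low, with 10 to 37 counts per library for *Kcnf1* and 10.93 to 39.36 for *Kcnj14*. In CPM the genotypes of both overlapped, as did those of *Kcnmb1* and *Kcnd3*. *Kcnj14* was at 1.14 CPM in Npr1+/- 1, where the summed markers were lowest, and at 0.802, 1.17 and 1.61 CPM in WT. No test was run on the ratio to the markers.

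The range also narrowed from 4.07 to 1.43 times for *Kcnab1*, from 2.81 to 1.53 times for *Kcnh2* and from 2.35 to 1.88 times for *Kcnj8*, all with overlapping genotypes. For *Kcnj15* it widened from 2.61 to 4.33 times and for the low *Kcnf1* from 3.22 to 3.71 times, while for *Kcnq5* it stayed near 2.2 times. Per 1000 CPM of the markers *Kcnj15* was at 2.54, 1.22 and 1.02 in WT and at 1.95, 0.793 and 0.586 in Npr1+/- aortas, or 69.7% of the WT mean. The genotypes of *Kcnj15*, which did not overlap in CPM, overlapped on this ratio. The part of smooth muscle content in the levels of these genes was not tested.

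**Figure D4:**
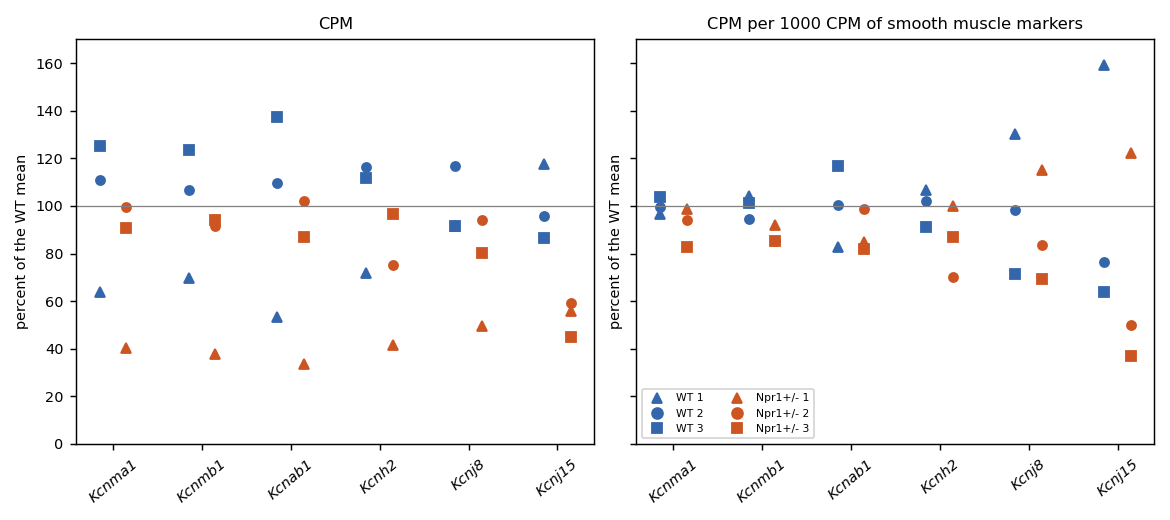
Levels of 6 members in each library as a percent of the WT mean (y axis), for CPM (left) and for CPM per 1000 CPM of smooth muscle markers (right), blue for WT and orange for Npr1+/-, with triangles, circles and squares for libraries 1, 2 and 3. *Kcnma1* and *Kcnmb1* draw together on the right, with a highest library 1.25 and 1.23 times the lowest, whereas *Kcnj15* spreads to 4.33 times and its genotypes overlap there.

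A further set of members was high in Npr1+/- 1 alone. Of the 57 members with at least 10 counts in that library, 18 had there at least 2 times the CPM of any other library, and 9 of these were voltage-gated. The minimum of 10 counts was set on that library itself. The same minimum over all genes left 14292, of which 5.2% were at least 2 times as high there. Among the tested members, 6 of 50 did so, against 2.65% of all genes, and these included *Kcna1*, *Kcna2*, *Kcna6*, *Kcnj10* and *Kcnt1*. The other 12 were not tested because the remaining libraries were low. *Kcnmb4*, the beta subunit of the neuronal BK channel, had 55 counts in Npr1+/- 1 and at most 2.01 elsewhere, and *Kcnj3*, a pore of the G protein-activated channel of neurons and atrium, had 16 and at most 1. Others of these 12, chosen like the whole set after their values were seen, were *Kcnd2*, *Kcnh1*, *Kcnh4*, *Kcnh8*, *Kcnj13*, *Kcnk4*, *Kcnk10*, *Kcnk13* and *Kcnn2*.

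*Kcnj10*, the Kir4.1 channel of glia, was at 3.71 CPM in Npr1+/- 1 and between 0.729 and 1.40 CPM elsewhere, with a log2 fold change of 0.96 and of 0.12 without that library. Of the 50 tested members, 19 had their highest CPM in Npr1+/- 1, against 28.9% of all genes tested. All 16 neuron markers and 5 of the 8 Schwann cell markers were highest in Npr1+/- 1, and their part in these levels was not tested. Of the other Schwann cell markers, *Prx* was at 15.7 CPM there and between 17.1 and 21.4 CPM elsewhere. *S100b* was highest in WT 1, and *Pmp2* had 0 counts in Npr1+/- 1.

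**Figure D5:**
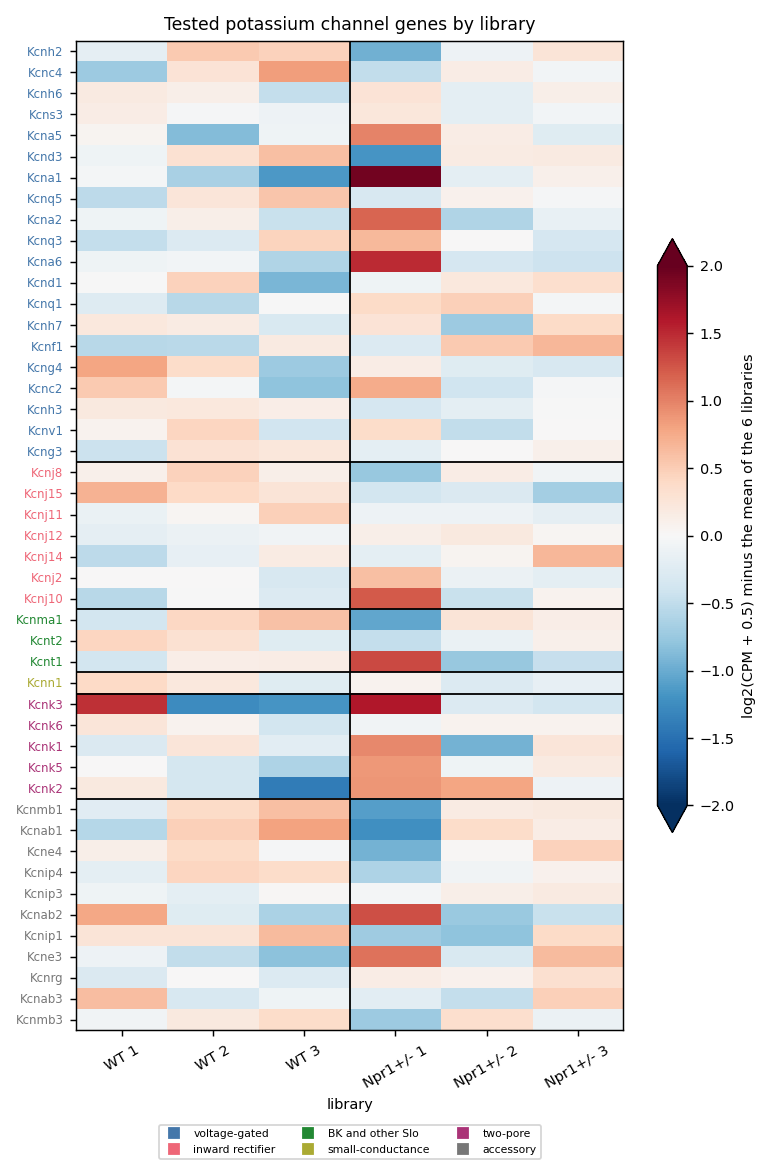
Tested members (rows, grouped by class and ordered by mean FPKM within it) in the 6 libraries (columns), coloured by log2(CPM + 0.5) minus the mean of the 6 libraries, red for higher and blue for lower. *Kcna1*, *Kcna6* and *Kcnt1* are red in Npr1+/- 1, *Kcnk3* is red in both libraries numbered 1, and *Kcnj15* is red in the WT and blue in the Npr1+/- columns.

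Genes of known channel partners were looked at in the same way. Of 11 such genes 7 were tested, of which 3 had a log2 fold change above 0 and 4 below, with a median of −0.05 against 0.01 over all genes, and 0 were called by edgeR, with or without the block. Without Npr1+/- 1 all 7 were below 0, with a median of −0.44 against −0.03 over all genes, of which 43.5% were above 0. They ran from −0.02 for *Amigo1* and −0.03 for *Lrrc38* to −0.99 for *Dpp10*. Apart from *Abcc9* and *Amigo1* the tested partners were low, with between 4 and 42 counts per library. DESeq2 called 0 without the block and 1 with it, *Abcc9*. *Dpp6*, a partner of Kv4 channels in neurons, had 99 counts in Npr1+/- 1 and 0 in every other library, where a count of 0 allows up to 3 counts. Of 12 channels known from vascular muscle or endothelium, all of them members, 7 were above 0 and 5 below, with a median of 0.16, and 0 were called by edgeR. Without Npr1+/- 1, 4 were above 0 and 8 below, with a median of −0.09. DESeq2 with the block called 1 of them, *Kcnk3*.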

How the data were processed

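RNA of whole aortas was sequenced in 3 WT and 3 Npr1+/- libraries. The authors filtered reads with SOAPnuke, aligned them with Bowtie2 to a coding gene set and estimated expression per gene with RSEM, and the deposited values are estimated counts, not normalized, and FPKM, scaled by transcript length and library size. The submitters' processing notes also name DESeq2 1.4.5 and the build mm10. Whether counting used strand is not given in the sources used here. Group and number of each library come from the sample titles. The authors' means per genotype were not used.

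Symbols and coordinates were taken from RefSeq on GRCm38.p6, which matched 18070 of 18191 gene identifiers. *Kcna10*, *Kcnh5*, *Kcnk15* and *Kcnk16* were not analysed here. Estimated counts were rounded and fitted over the whole table with edgeR 4.0.16 in R 4.3.3 (TMM, low-count filter with a minimum count of 10, quasi-likelihood test, Benjamini-Hochberg adjustment over 13938 genes). SE is the log2 fold change divided by the square root of F. Alternatives were DESeq2 1.42.0, limma 3.58.1 on log2(FPKM + 0.1) and log2(FPKM + 1), another normalization, no filter, a robust fit, the replicate block, and fits without each library or both libraries numbered 1. The sample titles state no pairing of libraries. Deviations from the genotype mean correlated at 0.686, 0.452 and 0.272 between libraries of the same number, and the numbers were used as pairs in the block. Between different numbers they correlated at −0.632 to 0.496, and at 0.448 or more for both such pairs of numbers 2 and 3, so that these 2 numbers were not told apart. The fits were tested on simulated data.

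Named genes were *Kcnj8* and *Kcnj15*, a list of vascular channels, the 3 highest by FPKM in each class, members with an unadjusted p under 0.05, the 5 largest fold changes in each direction among tested members, and members called by DESeq2 or with the block. Some members that this rule names are not reported here, though the counts include them. Members, classes and lists were chosen with earlier results of these data known. Depth limits low members, and floors cover counting error only.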

Additional observations from a re-analysis of the deposited data

How the results depend on the processing

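The count of potassium channel genes called by edgeR, 0, was 1 with DESeq2 and 3 with DESeq2 and the replicate block, and the count over all genes, 0, was 15, 268 and, without replicate 1 of either genotype, 1. The count of members with an unadjusted p under 0.05, 3 as reported, was 6 with DESeq2, 5 without the filter on low counts, 1 with limma on either FPKM scale, 14 with the replicate block, 13 with the block in DESeq2, 11 without replicate 1 of either genotype, and between 1 (without WT 2) and 6 (without WT 1) when a single library was left out. It was 5 without Npr1+/- 2. In edgeR the block changed no call. The cause of these shifts was not tested.

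Of 430 comparisons of 27 named members with an alternative, 410 kept the direction, and 17 members never turned. The log2 fold change turned without replicate 1 of either genotype for *Kcna2* (−0.22), *Kcne4* (0.07), *Kcnj2* (−0.02), *Kcnj10* (−0.04), *Kcnk1* (−0.37) and *Kcnt1* (−0.88, and −0.0026 with DESeq2 and the block). Leaving out single libraries, it ranged from −0.26 to 0.79 for *Kcna2*, −0.70 to 0.02 for *Kcnc4*, −0.57 to 0.07 for *Kcne4*, −0.10 to 0.47 for *Kcnj2*, −0.26 to 0.89 for *Kcnk1*, −0.62 to 1.85 for *Kcnk3*, −0.16 to 0.16 for *Kcnk6*, −0.50 to 0.0039 for *Kcnq5* and −0.72 to 0.78 for *Kcnt1*. *Kcne3* and *Kcng4* could not be fitted without replicate 1 of either genotype because they fell under the filter. Members near the floor of 3 counts, 0.185 to 0.219 CPM, cannot show small differences at this depth.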
